A study of Mus musculus with 8 samples.

Results

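The 10 antigen presentation genes described here were followed in mouse medial prefrontal cortex, of 54446 gene identifiers in the deposited count table. They were chosen by name, with earlier results of these data known. The class I set held 6 genes: the heavy chains H2-K1 and H2-D1, the light chain B2m, the peptide transporter subunits Tap1 and Tap2, and the loading factor Tapbp. The class II set held 4 genes: the invariant chain Cd74 and the chain genes H2-Aa, H2-Ab1 and H2-Eb1. All 10 passed the filter on low counts. Poly(A) RNA was sequenced in 4 libraries whose titles name Ino80e overexpression and 4 whose titles name wild type. Ino80e codes for a protein of the INO80 complex, which remodels chromatin, and the series' design text describes altering the risk gene with an adeno-associated virus delivered by stereotaxic injection. The labels do not state the strain, sex, age, time after injection, any virus given to wild-type mice, or whether each library is 1 mouse. P-values therefore cover only library-to-library spread, part of which may be technical.

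Class I molecules sit on nearly all nucleated cells. A heavy chain pairs with B2m and is loaded with peptides that the proteasome cuts and that Tap1 and Tap2 carry into the endoplasmic reticulum, where tapasin (Tapbp) bridges transporter and heavy chain. Class II molecules are alpha and beta chain pairs that the invariant chain Cd74 escorts to endosomes, and in healthy brain they are largely limited to a few myeloid cells at its borders and to scattered microglia. Interferon gamma induces both classes, through the transactivators Nlrc5 for class I and Ciita for class II, which act with factors bound at the X and Y boxes of the promoters.

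The promoter windows are shown because the 2 classes share some promoter elements and differ in others, and their levels are compared library by library below. Of the 10 members, 7 matched an entry in the RefSeq promoter table (GRCm38.p6), each window holding 250 bases before and 50 after an annotated start. Tap2, Cd74 and H2-Ab1 had no entry, and of 2 entries for H2-K1 the one nearer the annotated gene start was used. Windows of 3 class I and 2 class II genes follow, 5′ to 3′ on the strand of the gene: H2-K1 at chr17:34000298-34000597 (minus strand), H2-D1 at chr17:35262844-35263143 (plus), B2m at chr2:122147437-122147736 (plus), H2-Aa at chr17:34287774-34288073 (minus) and H2-Eb1 at chr17:34305617-34305916 (plus). Capitals mark matches, on either strand, to the NF-kB element core GGGATTCCC, the interferon regulatory factor core AANNGAAA and the letters CTGATTGG. These last letters hold the inverted CCAAT of a Y box (ATTGG) only where they read on the strand of the gene. Also marked is the X box core GCAAC where CTGATTGG starts at most 45 bases after it on the same strand.
H2-K1: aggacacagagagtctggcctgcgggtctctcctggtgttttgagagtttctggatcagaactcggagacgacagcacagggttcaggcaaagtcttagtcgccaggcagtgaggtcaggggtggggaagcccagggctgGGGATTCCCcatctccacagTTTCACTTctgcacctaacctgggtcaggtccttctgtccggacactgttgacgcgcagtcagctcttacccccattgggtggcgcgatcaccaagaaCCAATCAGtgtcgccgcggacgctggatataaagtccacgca
H2-D1: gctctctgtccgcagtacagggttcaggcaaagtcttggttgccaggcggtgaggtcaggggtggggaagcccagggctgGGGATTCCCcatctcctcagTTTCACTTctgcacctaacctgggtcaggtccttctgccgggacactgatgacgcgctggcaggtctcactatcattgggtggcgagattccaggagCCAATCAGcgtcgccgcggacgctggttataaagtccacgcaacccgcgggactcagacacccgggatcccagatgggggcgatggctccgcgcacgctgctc
B2m: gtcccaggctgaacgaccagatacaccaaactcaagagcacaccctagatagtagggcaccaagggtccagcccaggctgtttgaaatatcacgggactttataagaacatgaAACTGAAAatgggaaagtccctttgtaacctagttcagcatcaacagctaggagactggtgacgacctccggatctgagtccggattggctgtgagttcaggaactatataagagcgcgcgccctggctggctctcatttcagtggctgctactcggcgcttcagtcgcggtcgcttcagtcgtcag
H2-Aa: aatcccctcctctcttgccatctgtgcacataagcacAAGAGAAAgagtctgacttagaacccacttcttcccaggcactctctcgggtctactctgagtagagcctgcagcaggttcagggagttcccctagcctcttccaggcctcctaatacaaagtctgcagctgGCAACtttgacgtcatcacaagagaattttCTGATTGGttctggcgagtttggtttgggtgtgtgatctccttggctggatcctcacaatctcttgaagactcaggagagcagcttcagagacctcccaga
H2-Eb1: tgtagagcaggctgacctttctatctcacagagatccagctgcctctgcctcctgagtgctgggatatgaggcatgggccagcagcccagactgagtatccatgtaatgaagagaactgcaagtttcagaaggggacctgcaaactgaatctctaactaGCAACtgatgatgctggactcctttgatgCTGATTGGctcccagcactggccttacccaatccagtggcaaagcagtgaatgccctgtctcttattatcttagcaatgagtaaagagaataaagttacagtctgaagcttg
The motifs were picked from textbook knowledge with the sequences in view, and a match is a description of letters only. Each was searched for only as spelled above, so an element spelled otherwise was not counted. No marked matches overlapped in these windows. The NF-kB core was found in H2-K1 and H2-D1, and in 0.353% of 32851 promoter windows of the same length. H2-Aa and H2-Eb1 were the 2 members with GCAAC ahead of CTGATTGG in these exact letters, an arrangement found in 0.161% of all windows. The letters CTGATTGG, on either strand, were in 5 of the 7 windows (H2-K1, H2-D1, Tap1, H2-Aa and H2-Eb1), against 4.1% of all windows. They read on the strand of the gene, as in a Y box, only in H2-Aa (position -51) and H2-Eb1 (-62). In H2-K1 (position 9), H2-D1 (-53) and Tap1 (-222) that strand held CCAATCAG, a direct CCAAT. The interferon regulatory factor core was in H2-K1, H2-D1, B2m and H2-Aa, and in 23.9% of all windows, so it is a common string. The Tapbp window had no match to any motif searched for.

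Library totals ran from 44762378 to 60490153 counts. Ino80e, the targeted gene, stood at 74.1, 23.4, 23.3 and 45.04 CPM (counts scaled to library size) in replicates 1 to 4 labelled overexpression, against 19.5 to 25.5 CPM in wild type. Replicates 2 and 3 thus lay inside the wild-type range, so groups are named below by their labels. Replicate 1 labelled overexpression stood apart in interferon-responsive genes and also had the lowest summed level of 6 oligodendrocyte markers, at 4202 CPM against 5049 to 6100 in the other 7 libraries. Wild-type replicate 4 stood apart in choroid plexus and meningeal markers, at 1102 CPM summed over 8 genes against 32.2 to 137 elsewhere.

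Among the wild-type libraries 4 of the 6 class I genes were more abundant per length than any class II gene, while Tap1 and Tap2 were not. Levels of different genes are compared here as RPKM, which is CPM per kilobase of merged exon, as mean ± SD over 4 libraries. B2m led with 64.7 ± 5.62 RPKM, followed by H2-D1 at 16.8 ± 1.23, H2-K1 at 9.18 ± 1.11 and Tapbp at 7.36 ± 0.377. The ranges of these 4 did not overlap. The invariant chain Cd74 came next at 2.21 ± 0.430 RPKM, overlapping Tap2 at 1.35 ± 0.325. H2-Eb1 (0.651 ± 0.0855), Tap1 (0.596 ± 0.132), H2-Ab1 (0.552 ± 0.114) and H2-Aa (0.406 ± 0.0850) were lowest, and each overlapped its neighbour in this order. The order among these low genes rests on the gene model: with the length of the longest transcript, H2-Ab1 stood at 1.17 RPKM, above Tap1 at 0.835 and H2-Eb1 at 0.758.

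All 4 class II genes were higher in every library labelled overexpression than in every wild-type library, with no overlap between the groups. None passed the test across all genes (edgeR's quasi-likelihood test, Benjamini-Hochberg adjusted p of 0.05). Their log2 fold changes, overexpression minus wild type, lay between 0.94 and 1.16, with a median of 0.95 against 0.0016 over all 17636 genes tested. Groups that do not overlap, with the higher values in overexpression, were found for 2.82% of all genes tested. In class I the same held for 1 of 6 genes, H2-D1, and the median log2 fold change was 0.29.

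Over both classes, edgeR called 0 of the 10 members, where it called 6 genes or 0.034% of all genes tested. At an unadjusted p under 0.05 the count was 8 members, all higher in overexpression, where 5.24% of all genes were higher at that level. DESeq2 called 1 of the 9 members it gave an adjusted p, H2-D1 (log2 0.39, SE 0.096, adjusted p = 0.030). It gave none for H2-Eb1 (unadjusted p = 2.2e-04), and 0.183% of the 13101 genes with an adjusted p were called as higher. All 10 members had a log2 fold change above 0, as had 50.5% of all genes.

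**Figure D1:**
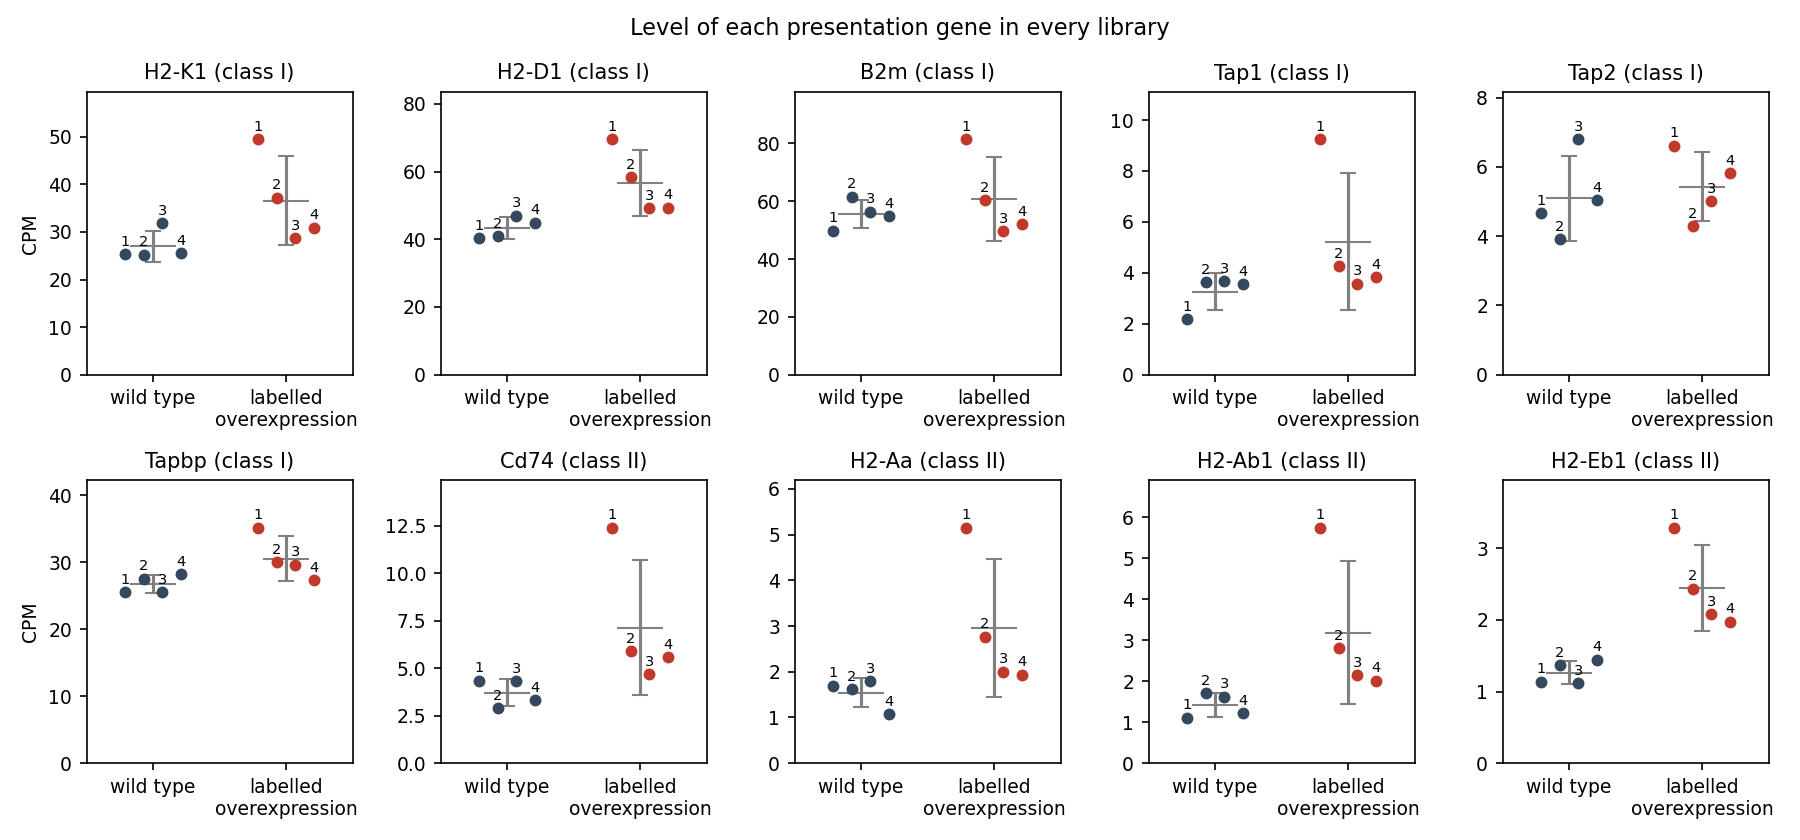
Level of each of the 10 genes in CPM on a linear axis from 0, with 1 point per library numbered by replicate and grey bars for the mean ± SD of 4 libraries. In the 4 class II panels every overexpression point lies above every wild-type point, and replicate 1 labelled overexpression is the highest point in 9 of the 10 panels.

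H2-Ab1, the beta chain of the I-A molecule, stood at 5.75, 2.81, 2.15 and 2.02 CPM in overexpression replicates 1 to 4. In wild type it stood at 1.11, 1.71, 1.62 and 1.23 CPM. The lowest overexpression library was above the highest wild-type library, and replicate 1 was 4.05 times the wild-type mean while the other 3 were 1.42 to 1.98 times it. The log2 fold change was 1.16 (SE 0.30, unadjusted p = 0.0010, edgeR adjusted p = 0.27).

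H2-Eb1, the beta chain of the I-E molecule, had the smallest spread of the class II genes. Its levels were 3.29, 2.44, 2.08 and 1.98 CPM in overexpression, against 1.14, 1.37, 1.11 and 1.45 CPM in wild type. Here the overexpression libraries were 1.56 to 2.60 times the wild-type mean, the narrowest range in the class. The log2 fold change was 0.95 (SE 0.25, unadjusted p = 7.8e-04, edgeR adjusted p = 0.26).

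H2-Aa, the alpha chain that pairs with the product of H2-Ab1, stood at 5.15, 2.77, 2.0004 and 1.94 CPM in overexpression and at 1.69, 1.62, 1.79 and 1.07 CPM in wild type. Replicates 3 and 4 lay only just above the wild-type libraries, of which replicate 4 was the lowest. The log2 fold change was 0.94 (SE 0.29, edgeR adjusted p = 0.31).

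Cd74 was the most abundant class II gene, at 12.4, 5.89, 4.70 and 5.58 CPM in overexpression and 4.34, 2.90, 4.30 and 3.31 CPM in wild type. Its overexpression replicate 3 was close to wild-type replicates 1 and 3. The log2 fold change was 0.94 (SE 0.30, edgeR adjusted p = 0.35). Cd74 reads per length were 1.14 to 1.44 times the sum of the 3 chain genes in overexpression and 0.963 to 1.77 times in wild type, so the balance of invariant chain and chains overlapped between groups.

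H2-D1, a classical class I heavy chain, was the 1 class I gene whose groups did not overlap. It stood at 69.6, 58.4, 49.2 and 49.3 CPM in overexpression and at 40.3, 41.0, 46.9 and 44.9 CPM in wild type. The closest pair was overexpression replicate 3 and wild-type replicate 3. The log2 fold change was 0.39 (SE 0.10, unadjusted p = 0.0028, edgeR adjusted p = 0.31).

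H2-K1, the other classical heavy chain, stood at 49.5, 37.2, 28.7 and 30.9 CPM in overexpression, against 25.3, 25.2, 31.8 and 25.5 CPM in wild type. Overexpression replicates 3 and 4 lay below wild-type replicate 3, which lay apart from the other wild-type libraries. The log2 fold change was 0.44 (SE 0.18, edgeR adjusted p = 0.46). H2-K1 and H2-D1 are close relatives in sequence, and the labels do not say how reads that match more than 1 heavy chain gene were counted. Their count ratio, H2-K1 over H2-D1, ran from 0.583 to 0.711 in overexpression and from 0.568 to 0.679 in wild type.

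B2m, the light chain of every class I molecule, did not separate. It stood at 81.5, 60.3, 49.7 and 52.1 CPM in overexpression and at 49.8, 61.6, 56.4 and 54.8 CPM in wild type, with replicate 1 alone above all wild-type libraries (log2 0.13, SE 0.17, edgeR adjusted p = 0.82). The ratio of B2m to the summed heavy chains, per length, was 2.16, 1.99, 1.9998 and 2.04 in overexpression and 2.39, 2.92, 2.26 and 2.44 in wild type. The groups did not overlap in this ratio, which was lower in overexpression. H2-D1, whose groups did not overlap either, is part of the ratio, so this is not a separate result. The share of other gene ratios without overlap was not computed.

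The transporter subunits differed from each other. Tap1 stood at 9.25 CPM in overexpression replicate 1 and at 4.25, 3.57 and 3.82 CPM in replicates 2 to 4, against 2.18, 3.63, 3.68 and 3.57 CPM in wild type. Only the first of these libraries lay far from wild type, and wild-type replicate 1 was low (log2 0.67, SE 0.30, edgeR adjusted p = 0.46). Tap1 has exons that overlap those of Psmb9 on the opposite strand, and the labels do not state whether counting used strand, so its counts are uncertain. Tap2 stood at 6.62, 4.30, 5.01 and 5.81 CPM in overexpression and 4.66, 3.91, 6.80 and 5.03 CPM in wild type, and its highest library was wild type (log2 0.089, SE 0.17, edgeR adjusted p = 0.88). Tap2 overlaps other annotated genes on the opposite strand.

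Tapbp, the tapasin gene, stood at 35.2, 30.1, 29.7 and 27.3 CPM in overexpression and 25.6, 27.5, 25.5 and 28.2 CPM in wild type. Of the overexpression libraries 3 were above all wild-type libraries, and replicate 4 was inside their range (log2 0.19, SE 0.078, edgeR adjusted p = 0.40). Tapbp shares exon sequence with Zbtb22 on the same strand and is uncertain for that reason.

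On GRCm38, 8 of the 10 genes lie in the major histocompatibility region of chromosome 17. They are Tapbp (ENSMUSG00000024308, 33915899 to 33929292, plus strand), H2-K1 (ENSMUSG00000061232, 33996017 to 34000347, minus), Tap1 (ENSMUSG00000037321, 34187553 to 34197225, plus), Tap2 (ENSMUSG00000024339, 34203527 to 34216321, plus), H2-Ab1 (ENSMUSG00000073421, 34257689 to 34269419, plus), H2-Aa (ENSMUSG00000036594, 34282744 to 34287823, minus), H2-Eb1 (ENSMUSG00000060586, 34305867 to 34316674, plus) and H2-D1 (ENSMUSG00000073411, 35262730 to 35267499, plus). B2m (ENSMUSG00000060802) lies on chromosome 2 at 122147686 to 122153083 and Cd74 (ENSMUSG00000024610) on chromosome 18 at 60803848 to 60812652, both on the plus strand. The class II genes without overlap between groups thus include 1 gene, Cd74, outside the region.

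Compared library by library, class II lay above class I in every overexpression library. The measure is the mean over a class of log2 CPM minus the gene's wild-type mean. In overexpression replicates 1 to 4 the class II shift was 1.72, 0.86, 0.52 and 0.53, and the class I shift was 0.74, 0.23, 0.074 and 0.13. The difference, class II minus class I, was 0.97, 0.63, 0.44 and 0.39 in these libraries. In wild-type replicates 1 to 4 it was 0.16, 0.065, -0.036 and -0.19. Both classes were highest in overexpression replicate 1 and next highest in replicate 2, while class I in replicates 3 and 4 lay within the wild-type range of -0.17 to 0.16. For all 4 class II genes replicate 1 was the highest library and replicate 2 the second. In class I replicate 1 was the highest for 5 of 6 genes and replicate 2 the second for 4. Replicate 1 held the highest level of 11.8% of all genes tested. Beside Ino80e, replicate 1 had both the highest Ino80e (74.1 CPM) and the highest shifts, and replicate 3 both the lowest Ino80e of the overexpression libraries (23.3 CPM) and the lowest shifts. Replicate 2, with Ino80e at 23.4 CPM, had a class II shift of 0.86, above the 0.53 of replicate 4, with 45.04 CPM. The relation of the shifts to Ino80e was not tested.

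**Figure D2:**
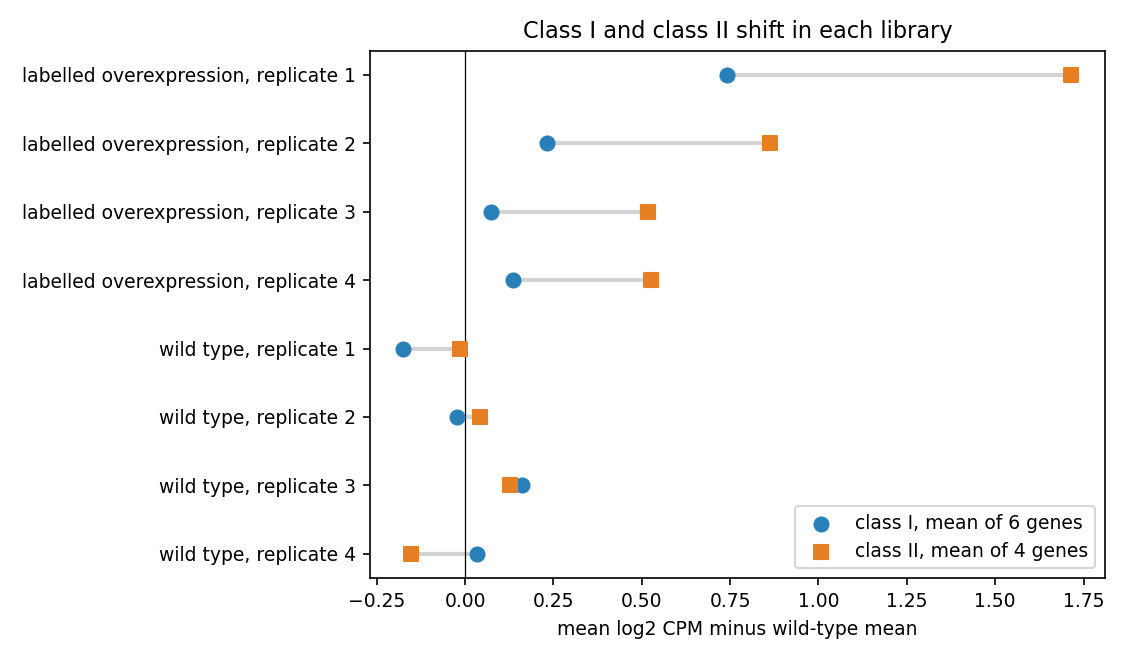
Mean log2 shift from wild type for class I (circles, 6 genes) and class II (squares, 4 genes) in each of the 8 libraries, on a linear axis of log2 units. The class II square lies to the right of the class I circle in all 4 overexpression libraries, by 0.39 to 0.97, and the wild-type differences lie between -0.19 and 0.16.

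Leaving out overexpression replicate 1 lowered both medians. The class II median log2 fold change became 0.62 and the class I median 0.18. H2-Eb1 kept a log2 fold change of 0.77 (SE 0.26, edgeR adjusted p = 0.42) and H2-Ab1 one of 0.71 (SE 0.26, edgeR adjusted p = 0.43), from 0.95 and 1.16. Without that library Cd74 was at 0.53 (SE 0.18) and H2-Aa at 0.53 (SE 0.27). In class I, H2-D1 stayed at 0.27 (SE 0.074, unadjusted p = 0.0012, edgeR adjusted p = 0.35), while Tap1 went from 0.67 to 0.25 (SE 0.21) and B2m to -0.043 (SE 0.075). As the 4 class II genes did not overlap with all libraries, leaving out overexpression libraries could not make them overlap. That they still lay above wild type is therefore no further support. Over all genes, the share without overlap was 4.36% without replicate 1 and 10.3% without replicates 1 and 2. It was 8.94% without replicates 2 and 3, whose Ino80e lay in the wild-type range. These counts were added after seeing the data. With replicates 2 and 3 left out the class II median was 1.24 and the class I median 0.37, and with 1 and 2 left out they were 0.51 and 0.12.

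**Figure D3:**
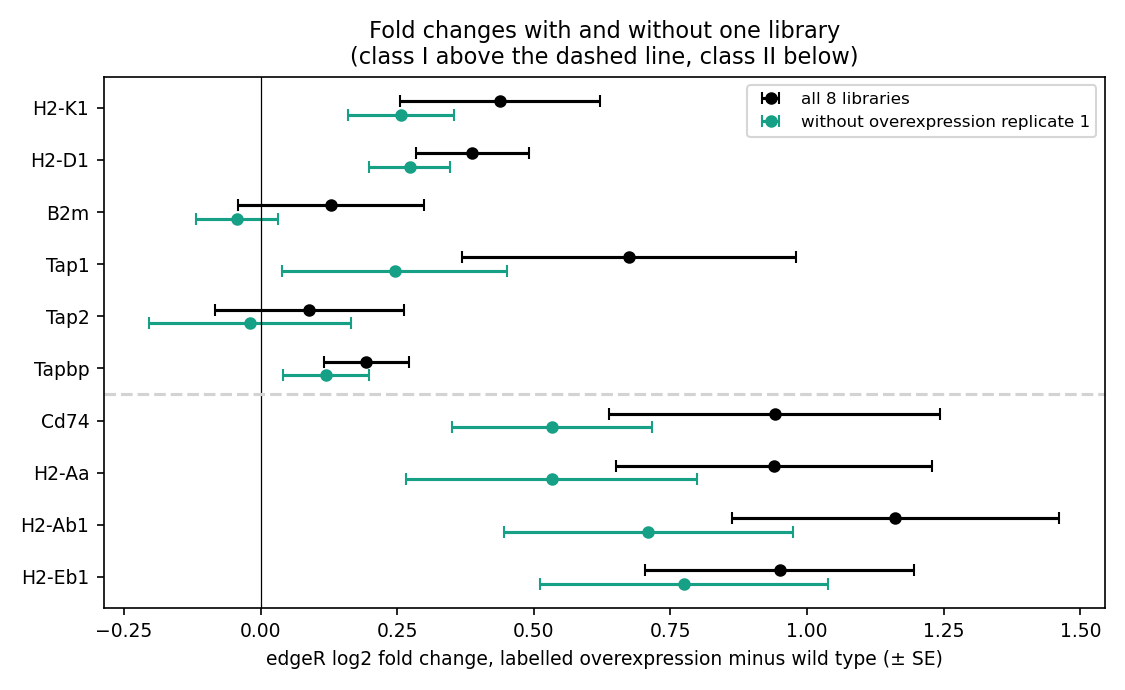
edgeR log2 fold change of each gene, overexpression minus wild type, with bars of ± 1 SE, for all 8 libraries (black) and without overexpression replicate 1 (green). The 4 class II genes below the dashed line lie between 0.94 and 1.16 with all libraries and between 0.53 and 0.77 without that library, while B2m and Tap2 lie just below 0 without it.

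The other genes of the pathway were read from lists, and no gene in any of them passed edgeR's threshold over all genes. Of 19 other class I heavy chain genes, 13 were tested and 10 had a fold change above 0, with a median log2 of 0.21. H2-T23, which presents leader peptides of other class I chains, stood at 32.2, 28.0, 22.4 and 26.2 CPM in overexpression against 21.01 to 23.7 CPM in wild type (log2 0.27, SE 0.091, adjusted p = 0.32). H2-T22, a ligand of some gamma delta T cells, did not overlap between groups, at 18.8 to 20.1 CPM against 14.0 to 17.7 CPM (log2 0.26, SE 0.087, adjusted p = 0.32). H2-Q7 stood at 4.08 CPM in overexpression replicate 1 and between 0.826 and 1.07 CPM in the other 3, against 0.557 to 0.911 CPM in wild type (log2 1.18, SE 0.48, adjusted p = 0.41). H2-Q6 had the same shape, with 5.64 CPM in replicate 1 and 1.22 to 2.02 CPM in the other 3, against 1.15 to 1.84 CPM in wild type. These Q-region genes are near-identical, so reads may be divided among them.

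The immunoproteasome, whose subunits replace those of the constitutive proteasome under interferon, had all 5 genes above 0 with a median log2 of 0.23. Psmb8 stood at 2.69, 2.003, 1.02 and 1.72 CPM against 0.624 to 1.48 CPM in wild type (log2 0.89, SE 0.33, adjusted p = 0.36). Psmb10 stood at 25.8 to 31.8 CPM against 21.2 to 26.7 CPM (log2 0.26, SE 0.086, adjusted p = 0.31). The 14 constitutive core subunits had a median of -0.017, with 6 above 0. Genes of folding, loading and peptide trimming for class I pointed the other way. Of 10, 3 were above 0 and the median log2 was -0.12. The mean shift of this list overlapped between groups, at -0.11 to -0.025 in overexpression and -0.078 to 0.12 in wild type. At an unadjusted p under 0.05, 6 of the 10 were lower in overexpression, as were 5.43% of all genes. Pdia3, the oxidoreductase that works with tapasin, stood at 153 to 166 CPM in overexpression against 172 to 199 CPM in wild type without overlap (log2 -0.20, SE 0.054, unadjusted p = 9.0e-04, edgeR adjusted p = 0.27). The chaperone Canx (log2 -0.13, SE 0.051) and the peptidase Tpp2 (log2 -0.18, SE 0.061) also had groups that did not overlap, with lower values in overexpression, as had 3.02% of all genes.

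The class II loading list had 13 genes, 10 of them tested and 9 above 0, with a median log2 of 0.21. Ctss, the protease that trims the invariant chain, stood at 74.5 and 74.6 CPM in overexpression replicates 1 and 2 and at 54.5 and 55.9 CPM in replicates 3 and 4, against 52.4 to 59.2 CPM in wild type (log2 0.22, SE 0.11, adjusted p = 0.51). H2-DMa, which exchanges peptides on class II, overlapped between groups at 9.96 to 11.8 and 7.75 to 11.6 CPM (log2 0.19, SE 0.13). The 2 transactivators were near 1 CPM. Nlrc5 stood at 2.42, 1.22, 0.463 and 0.890 CPM in overexpression against 0.474 to 1.11 CPM in wild type (log2 0.79, SE 0.43, adjusted p = 0.52). Ciita stood at 1.40, 0.620, 0.942 and 1.503 CPM against 0.846 to 1.35 CPM. Overexpression replicate 2, second highest in class II, was the lowest of all libraries in Ciita. Whether either transactivator has a part in the shifts was not tested.

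Interferon-responsive genes were far above wild type in only 1 library. The mean shift of 18 genes of the interferon gamma axis was 0.82, 0.13, -0.24 and 0.13 in overexpression replicates 1 to 4, against -0.075 to 0.043 in wild type. For 20 genes of the type I axis it was 1.53, 0.19, -0.31 and 0.069, against -0.18 to 0.24. The chemokine gene Cxcl10 had 223 counts in overexpression replicate 1, 8 to 20 in the other 3 and 0 to 8 in wild type. Ifng, which encodes interferon gamma itself, and Ifnb1 had 0 counts in all 8 libraries, where a limit of 3 counts is 0.0496 to 0.0668 CPM per library. Overexpression replicates 2 and 4 lay above the wild-type range in the gamma axis and inside it in the type I axis. Replicate 3 was below the wild-type range in both axes while its class II shift was 0.52. Whether the interferon-responsive genes have a part in the class II shift was not tested.

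**Figure D4:**
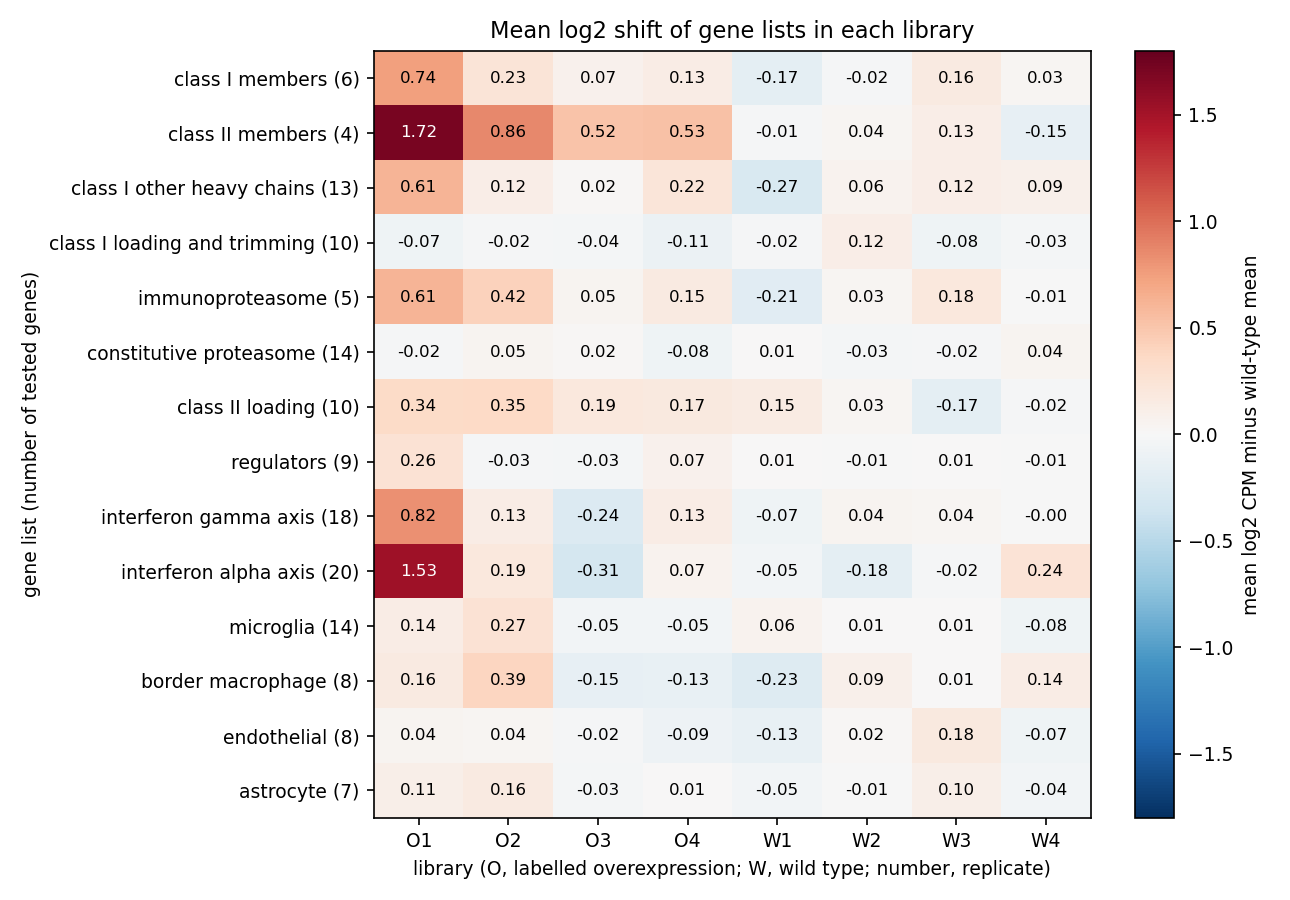
Mean log2 shift from wild type of 14 gene lists (rows, number of tested genes in brackets) in each of 8 libraries (columns), colour and printed value in log2 units. The class II row is above 0.5 in all 4 overexpression libraries, whereas the interferon rows are high in overexpression replicate 1 and at or below 0.19 in the other 3.

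Class II transcripts in brain come from few cells, so markers of the cells that could carry them were read beside them. In bulk tissue, fewer cells of a type and less RNA per cell cannot be told apart. The 14 microglia markers were all tested, 8 of them above 0, and their summed level was 530 to 662 CPM in overexpression and 511 to 573 CPM in wild type. It was highest in overexpression replicates 1 and 2, at 630 and 662 CPM, where class II was highest too. Class II reads per 1000 reads of these markers were 42.2, 20.997, 19.5 and 21.7 in overexpression and 14.8, 13.9, 15.4 and 13.8 in wild type, without overlap. For class I the same ratio was 399, 294, 295 and 319 in overexpression and 264 to 317 in wild type, with overlap. At an unadjusted p under 0.05, 5 of the 14 markers were higher and 1 lower in overexpression, where 5.24% of all genes were higher and 5.43% lower. Those with the lowest p were Sall1, Csf1r and Fcrls: Csf1r (log2 0.18, SE 0.062) and Sall1 (log2 0.23, SE 0.076) were higher and Fcrls (log2 -0.22, SE 0.082) lower, and no marker passed the adjusted threshold.

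The 9 markers of border macrophages summed to 30.8 to 37.1 CPM in overexpression and 24.3 to 36.8 CPM in wild type, and 10 dendritic cell markers to 21.9 to 26.4 and 26.2 to 28.1 CPM. The dendritic cell gene Xcr1 was at 0 in all libraries and Clec9a had 5 to 22 counts. The B cell gene Ms4a1 had 0 to 4 counts. Of T cell genes, Cd3e had 0 to 9 counts, and Cd3d had 15 and 8 counts in overexpression replicates 1 and 2 and 0 in the other 6 libraries. Summed, the 11 T cell markers stood at 12.1 to 14.3 CPM in overexpression and 10.6 to 14.99 CPM in wild type. The part of these cells in the class II shift was not tested.

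By the root mean square difference of log2 shifts over the 8 libraries, 14282 genes of at least 1 CPM were ranked by likeness to each class. Closest to class I were Cnn2, an actin-binding calponin (0.078 log2 units), the interferon signalling gene Stat2 (0.093), the unnamed locus CT010496.1 (0.10), H2-T23 (0.10) and Trim16 (0.11). Closest to class II were the interferon-induced Ifit3 (0.26), the hexokinase gene Hk3 (0.26), Rnf213 (0.28), Gpnmb, a glycoprotein of activated myeloid cells (0.29), and the Fc receptor gene Fcgr1 (0.31). The distances are not scaled to the size of the shifts, which were larger in class II. They therefore cannot be compared between the classes. Hk3 shifted by 1.17, 0.76, 0.69 and 0.30 in overexpression replicates 1 to 4, and Gpnmb by 1.79, 0.88, 0.11 and 0.22.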

How the data were processed

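Total RNA was extracted with Trizol and made into strand-specific poly(A) libraries with dUTP, per the labels' protocols. The deposited table holds raw read counts per Ensembl gene. The submitters' processing notes name Trimmomatic 0.39, STAR 2.7.10, featureCounts 2.0.3 and, as builds, mm10 and GRCm38, without role or order. The sources used here do not give the strand setting, the gene annotation, or what was done with reads that match several genes. Groups and replicate numbers came from the sample titles, and columns were matched by the sample descriptions.

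Symbols, coordinates, exon lengths and transcript GC came from GENCODE M21 (GRCm38), which matched 54409 of 54446 identifiers. Promoters came from RefSeq (GRCm38.p6). filterByExpr left 17636 genes, scaled by TMM and tested with edgeR 4.0.16 (R 4.3.3, robust quasi-likelihood). Standard errors (SE) are the fold change over the root of F. CPM are counts over scaled library size, and shifts use log2 CPM with a prior count of 2. Scripts were checked on simulated data. No library copied another (chi-square per degree of freedom of at least 9.53 over 28 pairs). Among counts of 1 to 10, 66.9% to 69.1% were even, and whether both mates of a read pair were counted was not tested. If they were, a count is less than 1 fragment, and limits given in counts stand for fewer molecules.

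Members, lists and tests were chosen with earlier results of these data known. Named are all members, Ino80e, up to 4 genes per pathway list and 3 per marker list with the lowest p, and 5 genes closest to each class. Ciita, H2-DMa, Cxcl10, Ifng and the lymphocyte genes near 0 were named for their role or after their values were seen. The summed B cell markers are not reported here. Alternatives were RLE and upper-quartile scaling, 2 other filters, DESeq2 1.42.0, limma-voom (limma 3.58.1), no robust estimation, a GC spline, the replicate block and libraries left out.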

Additional observations from a re-analysis of the deposited data

Results flagged for a closer look

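Within groups of 4 libraries, 4 of 32 sets of values held a library far from the other 3, by Dixon's ratio of gap to range above 0.829. Chance flags about 1 in 20 such sets. H2-K1 in wild type was set apart by replicate 3, at 31.8 CPM. Tap1 was set apart in both groups, by overexpression replicate 1 at 9.25 CPM and by wild-type replicate 1 at 2.18 CPM. Cd74 was set apart by overexpression replicate 1 at 12.4 CPM.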

How the results depend on the processing

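None of the 20 other settings gave a class median below 0. Leaving out 1 library at a time, the class I median log2 fold change ran from 0.18 to 0.35 and the class II median from 0.62 to 1.096, and the count of members called was 0 each time. With no filter on low counts edgeR called 4 members, namely H2-D1, Cd74, H2-Aa and H2-Ab1, among 83 of 29946 genes tested. DESeq2 called 1 member among 40 of 13101 genes with an adjusted p. The edgeR fit used above called 0 members among 6 of 17636 genes. The cause of these differences was not tested. The number of genes called was 2 with limma-voom or without robust estimation, 1 to 8 with 1 library left out, 11 without overexpression replicates 1 and 2, and 1 without 2 and 3. Adjusted p for H2-Eb1, which DESeq2 did not give, ran from 0.095 to 0.85 and for H2-Ab1 from 0.0025 to 0.91. Tap2 turned to -0.0014 with the GC correction, to -0.019 without overexpression replicate 1 and to -0.022 without wild-type replicate 2. Leaving out 1 library, B2m ran from -0.043 to 0.22 and Tap2 from -0.022 to 0.26. B2m turned to -0.043 without overexpression replicate 1 and to -0.13 without replicates 1 and 2. With the longest transcript as gene length, wild-type RPKM became 14.4 for H2-K1, 20.6 for H2-D1, 0.835 for Tap1, 9.22 for Tapbp, 1.17 for H2-Ab1 and 0.758 for H2-Eb1. With the replicate number as a block the medians were 0.28 and 0.89, with 0 members and 1 gene called. The deviations of same-numbered libraries correlated by -0.051 to 0.027 over genes, and no overexpression library correlated best with its own number. No pairing by number was thus seen, though correlations over all genes cannot exclude a weak one. Class II genes have 50 to 645 counts per library, which limits their precision.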
